A study of Mus musculus with 6 samples.

Results

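Caveolae are flask-shaped pits of the plasma membrane, and white adipocytes carry them more densely than nearly any other cell. The 9 genes described here encode their building blocks: the caveolins *Cav1*, *Cav2* and *Cav3*, the cavins *Cavin1*, *Cavin2* and *Cavin3*, the neck ATPase *Ehd2* and the membrane-bending F-BAR proteins *Pacsin2* and *Pacsin3*. They were chosen by symbol from the 16619 genes of the deposited table, and all 9 were found and passed the filter on low values. RNA was sequenced from white adipose tissue labelled as epididymal (eWAT), with 3 WT and 3 *Prmt5* knockout libraries. By the study's methods the mice were 6-month-old females, both genotypes carried the floxed *Prmt5* allele (*Prmt5* flox/flox), and the knockout mice (*Prmt5* AKO) also carried Adipoq-Cre, which acts in adipocytes. Females have no epididymis, so the depot is named only as the labels name it. Each library holds RNA of the whole depot, including vessels, stroma and immune cells in which Cre is not active. The labels number the libraries but do not say that they came from separate mice, so p-values reflect the scatter among these samples alone, part of which may be technical.

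In a caveola, caveolins insert into the inner leaflet of the membrane as oligomers rich in cholesterol, and cavins form a coat over them from the cytosol. EHD2 holds the finished caveola at the surface, and pacsins help to shape its neck. In adipocytes caveolae take part in fatty acid uptake, insulin receptor signalling and the buffering of membrane tension, and mice without *Cav1* or *Cavin1* are lean. None of the genes is particular to adipocytes: endothelium and smooth muscle also build caveolae from CAV1 and CAVIN1, and muscle fibres use CAV3. In bulk tissue, fewer cells of a type and less RNA per cell cannot be told apart.

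The libraries held between 18731215 and 27445096 reads assigned to genes. *Prmt5* was at 36.6, 59.7 and 39.7 CPM (reads per gene scaled to a common library size) in the WT libraries and at 14.6, 22.03 and 28.5 CPM in the *Prmt5* AKO libraries, so every knockout library lay below every WT library (log2 fold change -1.06, exact two-sided permutation p = 0.1, the smallest that 3 against 3 libraries can give). The adipocyte markers fixed for the label were present in full: 14 of 14 passed the filter, and their summed level was 53903, 64446 and 54552 CPM in WT and 39279, 53133 and 46500 CPM in *Prmt5* AKO. Every knockout sum thus lay below every WT sum. This order depended on single markers, and without *Cfd*, for example, the sums overlap. *Cfd* was at 11232, 16319 and 12105 CPM in WT and at 4070, 5804 and 6222 CPM in *Prmt5* AKO. Of the 14 markers, 8 had a negative and 6 a positive fold change. Every knockout library lay below every WT library for 3 of these 14 and for 4 of 10 fibroblast markers, against 6.28% of all genes. The part of cell composition in the results below was not tested. Of the sex-linked genes listed, *Xist* was detected in all 6 libraries, and the Y-linked ones were not analysed here. The libraries also differed in a way that the genotypes did not follow. Across 16079 genes, the correlation of transcript GC content with a gene's log2 deviation from its own mean was -0.39, 0.21 and -0.53 for the WT libraries in order of replicate number and -0.38, 0.44 and 0.57 for the knockout ones. *Prmt5* AKO replicate 1 thus had the sign of WT replicates 1 and 3, and WT replicate 2 had the sign of the other two knockout libraries.

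Measured per kilobase of exon, the 9 transcripts spanned from among the most abundant of the depot down to a trace. *Cavin1* and *Cav1* stood highest, at ranks 93 and 112 of 16079 genes by mean level over the 6 libraries. In WT, *Cav1* was at 569 ± 86.7 CPM per kb and *Cavin1* at 536 ± 90.7 CPM per kb (SD, n = 3), and their ranges over libraries overlapped. Below them came *Cavin2* at 199 ± 62.6, *Ehd2* at 193 ± 36.1, *Cavin3* at 192 ± 85.9 and *Cav2* at 123 ± 55.5 CPM per kb, and each of these overlapped with its neighbours in this order. *Pacsin2* (14.5 ± 1.74 CPM per kb) and *Pacsin3* (8.45 ± 0.862 CPM per kb) were at much lower levels and did not overlap with each other in WT, and *Cav3*, the muscle caveolin, was at 1.496 ± 1.61 CPM per kb. In *Prmt5* AKO, *Cavin1* stood first by mean at 688 ± 196 and *Cav1* second at 470 ± 96.5 CPM per kb, with overlapping ranges. The range of *Cavin3* overlapped with both. It lay above *Cav1* in *Prmt5* AKO replicates 2 and 3, at 579 and 470 against 516 and 359 CPM per kb. *Cavin3* (417 ± 194 CPM per kb) and *Ehd2* (287 ± 94.7 CPM per kb) stood above *Cavin2* (93.7 ± 53.0 CPM per kb) and *Cav2* (62.6 ± 60.9 CPM per kb) there, and neither of the first pair overlapped with either of the second.

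**Figure D1:**
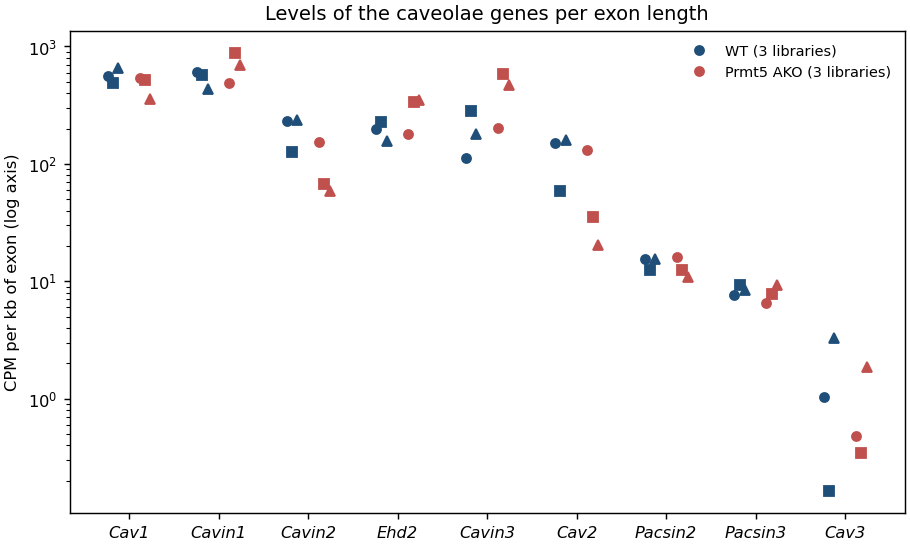
Level of each caveolae gene in CPM per kilobase of exon, on a log axis, with 1 point per library (circle, square and triangle for replicates 1, 2 and 3, blue for WT and red for *Prmt5* AKO). By group mean *Cav1* and *Cavin1* lie highest in both genotypes, though *Cavin3* lies above *Cav1* in *Prmt5* AKO replicates 2 and 3. *Cav3* lies lowest in both genotypes. *Cavin3* and *Ehd2* lie above *Cavin2* and *Cav2* in the red points with no overlap, while these 4 genes overlap in the blue points.

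Between genotypes, none of the 9 genes was called. A gene counted as called when its absolute log2 fold change exceeded 0.5 at an adjusted p under 0.05, by limma on log2(CPM + 0.5) with Benjamini-Hochberg adjustment over all 16109 genes kept. By this rule 0 of the 16109 genes were called (0%), with a smallest adjusted p of 0.0686. *Prmt5*, the deleted gene, was thus not called either (unadjusted p = 0.0135, adjusted p = 0.436 by limma). The quasi-likelihood test of edgeR on the reads recovered from the deposited values also called 0 (0%). DESeq2 called 1.87% and edgeR's likelihood ratio test 1.01% of all genes on those reads, and each called 0 of the 9. At an unadjusted p under 0.05 stood 1 of the 9 genes, *Cavin2*, and 8.72% of all genes. For each of the 9 the WT and *Prmt5* AKO libraries overlapped, whereas 14.4% of all genes showed no overlap. The fold change was positive for 3 of 9 (*Cavin1*, *Cavin3* and *Ehd2*) and for 48.1% of all genes and negative for 6 of 9 against 51.9%, and its median was -0.15 over the 9 and -0.03 over all genes on the log2 scale.

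**Figure D2:**
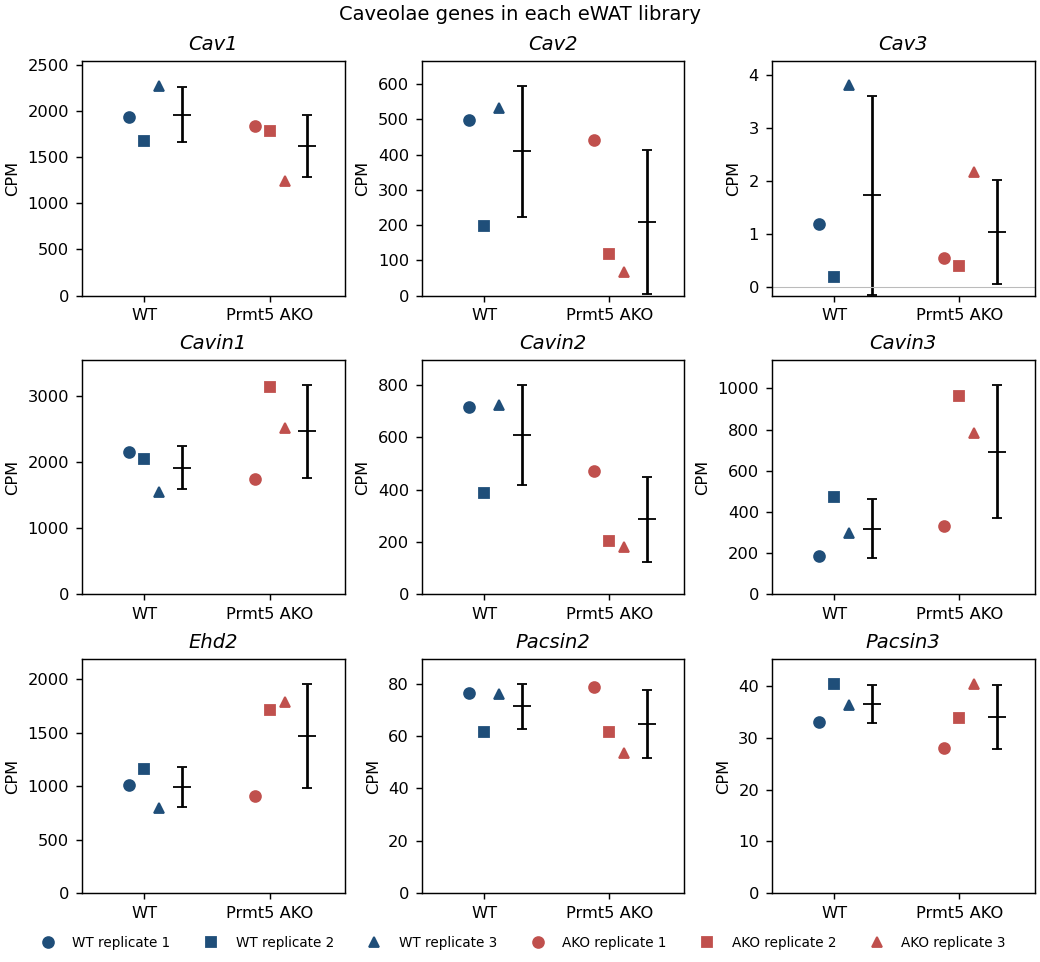
CPM of each caveolae gene in the 3 WT (blue) and 3 *Prmt5* AKO (red) libraries on linear axes, with the group mean (tick) and SD (bar) beside the points. The genotypes overlap in all 9 panels. In the panels of *Cav2*, *Cavin2*, *Cavin3*, *Cavin1* and *Ehd2*, *Prmt5* AKO replicate 1 (red circle) lies among the WT points or nearer to them than the other red points do.

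CAV1 is the caveolin without which non-muscle cells form no caveolae. CAV2 joins it in hetero-oligomers and needs it to reach the plasma membrane. In the mouse genome (GRCm38) both genes lie on the plus strand of chromosome 6, *Cav2* (ENSMUSG00000000058) at chr6:17281185-17289115 and *Cav1* (ENSMUSG00000007655) at chr6:17306335-17341452, with 17219 bp between the end of the first and the start of the second. Across the 6 libraries the log2 values of *Cav1* and *Cav2* had a Pearson's r of 0.87. Their promoter windows, from RefSeq on GRCm38.p6, are shown because these neighbouring partners varied to unlike extents. Each runs 5′ to 3′ from 250 bases before to 50 bases after the annotated start, at chr6:17306085-17306384 for *Cav1* and chr6:17280935-17281234 for *Cav2*, both on the plus strand. Capitals mark GC boxes (GGGCGG or, on the other strand, CCGCCC) and CCAAT boxes (CCAAT or ATTGG).
Cav1: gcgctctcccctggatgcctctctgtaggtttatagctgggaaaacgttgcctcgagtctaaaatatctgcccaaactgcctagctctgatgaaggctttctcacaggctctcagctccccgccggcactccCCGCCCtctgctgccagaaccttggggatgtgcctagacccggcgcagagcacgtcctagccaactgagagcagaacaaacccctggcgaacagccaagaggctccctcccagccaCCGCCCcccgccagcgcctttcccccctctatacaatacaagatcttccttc
Cav2: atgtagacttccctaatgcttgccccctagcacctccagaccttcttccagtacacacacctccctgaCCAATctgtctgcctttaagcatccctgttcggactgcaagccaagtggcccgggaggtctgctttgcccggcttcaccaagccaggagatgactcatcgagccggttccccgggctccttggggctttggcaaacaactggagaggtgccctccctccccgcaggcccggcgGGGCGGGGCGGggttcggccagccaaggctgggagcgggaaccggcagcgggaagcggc
The *Cav1* window held 2 GC boxes and no CCAAT box, and the *Cav2* window held 2 GC boxes, which share 1 base, and 1 CCAAT box. GC content was 59.3% and 64.3% against a median of 52.7% over all windows, and 35.6% of the 32817 mouse windows held a GC box and 37.4% a CCAAT box. A match is a description of the letters only.

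*Cav1* was at 1938, 1672 and 2268 CPM in the WT libraries and 1842, 1779 and 1238 CPM in the knockout ones, by replicate number. The knockout libraries 1 and 2 lay inside the WT range, and replicate 3 lay below it. The means were 1959 ± 299 and 1619 ± 332 CPM (SD, n = 3 each), and the log2 fold change was -0.29 (SE 0.38, 95% interval -1.15 to 0.58, adjusted p = 0.732 by limma). It ranged from -0.39 without WT replicate 2 to -0.10 without *Prmt5* AKO replicate 3.

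*Cav2* varied far more, with 500, 197 and 532 CPM in WT and 442, 117 and 67.5 CPM in *Prmt5* AKO. *Prmt5* AKO replicate 1 lay close to the high WT replicates 1 and 3, and WT replicate 2 lay nearer to the low knockout libraries, so the genotypes overlapped. Over the 6 libraries the highest *Cav2* level was 7.87 times the lowest, against 1.83 times for *Cav1*. The genotype difference was -1.30 on the log2 scale (SE 0.69, 95% interval -2.89 to 0.30, adjusted p = 0.601 by limma). Without *Prmt5* AKO replicate 1 it was -2.06 (limma, adjusted p = 0.0613), and without *Prmt5* AKO replicate 3 it was -0.71.

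CAV3 is the caveolin of skeletal, cardiac and some smooth muscle, and *Cav3* (chr6:112459505-112472872, plus strand) was counted from few reads: 28, 5 and 107 for WT and 12, 9 and 46 for *Prmt5* AKO. These correspond to 1.19, 0.189 and 3.81 CPM in WT and 0.557, 0.401 and 2.17 CPM in *Prmt5* AKO (a log2 fold change of -0.33, SE 0.70, adjusted p = 0.832 by limma). Skeletal muscle markers varied in the same libraries. Their summed level over 15 genes was 1659, 147 and 3200 CPM in WT and 399, 1114 and 2065 CPM in *Prmt5* AKO, all 15 passed the filter, and the myosin gene *Myh4* was at 0 in WT replicate 2. The highest, second and lowest libraries were the same for *Cav3* and for this sum (WT replicate 3, *Prmt5* AKO replicate 3 and WT replicate 2). The second place rested on *Acta1*, at 991 and 1170 CPM in *Prmt5* AKO replicates 2 and 3. Without *Acta1*, WT replicate 1 has the second highest sum. The part of muscle RNA in the *Cav3* values was not tested. *Cavin4*, the muscle cavin, named after its values were seen, was at 1.96, 0.0757 and 4.80 CPM in WT and 1.113, 0.580 and 0.992 CPM in *Prmt5* AKO. Its highest value was in WT replicate 3 and its lowest in WT replicate 2.

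CAVIN1 forms the caveolar coat, and its loss causes lipodystrophy in mice and humans. CAVIN2 joins the coat and shapes caveolae, and CAVIN3 joins it as a further subunit. *Cavin1* (ENSMUSG00000004044) lies at chr11:100956733-100970887 on the minus strand, *Cavin2* (ENSMUSG00000045954) at chr1:51289126-51302960 on the plus strand and *Cavin3* (ENSMUSG00000037060) at chr7:105480083-105482300 on the minus strand. Of the exons of *Cavin3*, 374 bp overlap with an unconfirmed plus-strand transcript (*Gm45667*), and since the sources used here do not state whether counting used strand, reads of this stretch are uncertain. The windows of *Cavin1* (chr11:100970568-100970867, minus strand) and *Cavin2* (chr1:51288876-51289175, plus strand) are shown, with the same capitals, because these coat partners had opposite signs.
Cavin1: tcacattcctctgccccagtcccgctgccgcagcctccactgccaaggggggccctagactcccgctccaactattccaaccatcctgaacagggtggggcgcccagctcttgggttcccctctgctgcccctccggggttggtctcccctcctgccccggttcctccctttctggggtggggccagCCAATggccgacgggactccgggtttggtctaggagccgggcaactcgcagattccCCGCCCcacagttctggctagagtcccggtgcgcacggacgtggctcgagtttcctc
Cavin2: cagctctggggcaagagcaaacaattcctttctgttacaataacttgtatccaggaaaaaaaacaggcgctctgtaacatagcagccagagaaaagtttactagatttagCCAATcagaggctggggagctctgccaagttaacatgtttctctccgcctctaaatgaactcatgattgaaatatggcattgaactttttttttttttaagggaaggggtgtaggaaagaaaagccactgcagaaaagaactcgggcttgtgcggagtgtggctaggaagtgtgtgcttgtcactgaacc
The *Cavin1* window had 66.7% GC, 17 CpG dinucleotides, 1 GC box and 1 CCAAT box, and the *Cavin2* window had 43.3% GC, 4 CpG dinucleotides, 1 CCAAT box and no GC box.

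*Cavin1* was at 2158, 2058 and 1551 CPM in WT and at 1744, 3146 and 2515 CPM in *Prmt5* AKO. *Prmt5* AKO replicates 2 and 3 lay above every WT library and replicate 1 lay within the WT range. The means were 1922 ± 325 and 2468 ± 702 CPM, with a log2 fold change of 0.33 (SE 0.41, 95% interval -0.62 to 1.29, adjusted p = 0.718 by limma). With single libraries left out it ranged from 0.14 (*Prmt5* AKO replicate 2) to 0.56 (*Prmt5* AKO replicate 1), and it was 0.19 without WT replicate 3.

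*Cavin2* was at 714, 387 and 723 CPM in WT and at 473, 205 and 181 CPM in *Prmt5* AKO. *Prmt5* AKO replicates 2 and 3 lay below every WT library, and replicate 1 lay above WT replicate 2. The means were 608 ± 191 and 286 ± 162 CPM, and the log2 fold change was -1.17 (SE 0.45, 95% interval -2.20 to -0.14), with an unadjusted p of 0.0311 and an adjusted p of 0.516 by limma. Over 23 alternative analyses the log2 fold change lay between -1.76 and -0.84, and *Cavin2* was called in 2 of them. Alternatives that change only the filter, the threshold or the variance cannot move this estimate, so they add nothing to its sign.

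*Cavin3* was at 187, 470 and 299 CPM in WT and at 334, 962 and 782 CPM in *Prmt5* AKO. The knockout replicates 2 and 3 lay above every WT library, and replicate 1 lay between WT replicates 3 and 2. The means were 319 ± 143 and 693 ± 323 CPM, with a log2 fold change of 1.08 (SE 0.50, 95% interval -0.06 to 2.23, unadjusted p = 0.0603, adjusted p = 0.581 by limma). The log2 fold change lay between 0.75 and 1.67 over the 23 alternatives, with the same limit, and *Cavin3* was called in 2 of them. The 2 alternatives were the same for *Cavin2* and *Cavin3*: array weights, which called 6 of the 9 caveolae genes against 57.9% of all genes, and a likelihood ratio test blocked on replicate number, which called these 2 of the 9 against 4.23%. Without *Prmt5* AKO replicate 1, when limma called 0.521% of all genes, the difference was -1.60 for *Cavin2* (adjusted p = 0.0610) and 1.54 for *Cavin3* (adjusted p = 0.0646), neither of them called.

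EHD2 is an ATPase that rings the caveolar neck and keeps caveolae at the surface. *Ehd2* (ENSMUSG00000074364, chr7:15946958-15967567, minus strand) was at 1013, 1162 and 795 CPM in WT and at 912, 1713 and 1785 CPM in *Prmt5* AKO. As for *Cavin1*, *Prmt5* AKO replicates 2 and 3 were above every WT library and replicate 1 was within the WT range. The means were 990.1 ± 185 and 1470.2 ± 485 CPM, and the log2 fold change was 0.53 (SE 0.40, 95% interval -0.39 to 1.44, adjusted p = 0.623 by limma). Without *Prmt5* AKO replicate 1 it was 0.84, and without any other single library it lay between 0.35 and 0.65.

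Both F-BAR genes had small fold changes. PACSIN2 bends membrane at caveolae in many cell types, and *Pacsin2* (chr15:83375607-83464606, minus strand) was at 76.4, 61.5 and 76.2 CPM in WT and at 78.9, 61.5 and 53.5 CPM in *Prmt5* AKO. Its log2 fold change was -0.15 with a 95% interval of -0.75 to 0.44 (adjusted p = 0.784 by limma), and it ranged from -0.31 without *Prmt5* AKO replicate 1 to -0.03 without replicate 3. PACSIN3 is the pacsin found at caveolae of muscle, and *Pacsin3* (chr2:91255954-91264679, plus strand) was at 33.0, 40.4 and 36.3 CPM in WT and at 28.0, 33.8 and 40.3 CPM in *Prmt5* AKO. Its log2 fold change was -0.11 with a 95% interval of -0.71 to 0.48 (adjusted p = 0.845 by limma). Over all 6 libraries the highest level was 1.48 times the lowest for *Pacsin2* and 1.44 times for *Pacsin3*.

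Of the 9 genes, 7 fell into opposite movements across the libraries. *Cav1*, *Cav2*, *Cavin2* and *Pacsin2* had their highest values in WT replicates 1 and 3 and in *Prmt5* AKO replicate 1, while *Cavin1*, *Cavin3* and *Ehd2* had their highest values in *Prmt5* AKO replicates 2 and 3. *Cav3* and *Pacsin3* followed neither order. As a description over 6 libraries of shared RNA composition and depth, Pearson's r of the log2 values was 0.97 between *Cav2* and *Cavin2*, 0.92 between *Cavin1* and *Ehd2*, and -0.95 between *Cavin2* and *Cavin3*. Such movement was not particular to these genes. Over all genes kept except the members, a single axis (the first principal component) held 64.5% of the variance. Pearson's r with it was 0.75 for *Cav1*, 0.97 for *Cav2*, 0.94 for *Cavin2* and 0.96 for *Pacsin2*. It was -0.72 for *Cavin1*, -0.95 for *Cavin3*, -0.90 for *Ehd2*, -0.62 for *Pacsin3* and 0.17 for *Cav3*. For 6 of the 9 genes the sign of the fold change ran with transcript GC content. *Cav2* (37.5% GC), *Cav1* (42.6%) and *Cavin2* (44.4%) lay below the median transcript of 49.7%, and *Ehd2* (54.5%), *Cavin3* (56.4%) and *Cavin1* (57.3%) lay above it. *Pacsin2* (52.7%), *Cav3* (56.6%) and *Pacsin3* (58.8%), whose log2 fold changes were negative (-0.15, -0.33 and -0.11), also lay above it. The summed level of 9 nuclear-retained RNAs varied in the same libraries, at 3083, 813 and 2141 CPM in WT and 3076, 200 and 208 CPM in *Prmt5* AKO, as did that of 13 mitochondrially encoded mRNAs, at 44715, 28693 and 60144 CPM in WT and 44782, 19044 and 14373 CPM in *Prmt5* AKO. The part of GC content and of RNA quality in the members' differences was not tested.

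**Figure D3:**
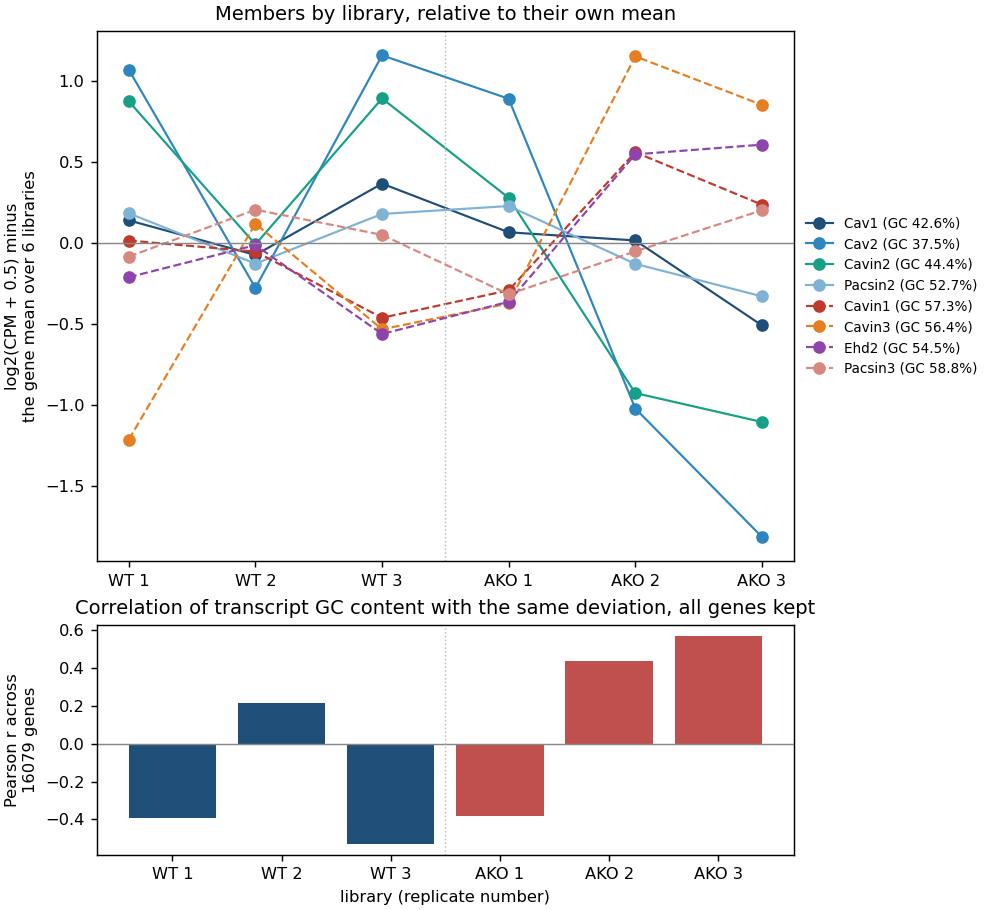
Upper panel: log2(CPM + 0.5) of 8 caveolae genes minus each gene's mean over the 6 libraries, with solid lines for *Cav1*, *Cav2*, *Cavin2* and *Pacsin2* and dashed lines for *Cavin1*, *Cavin3*, *Ehd2* and *Pacsin3* (*Cav3*, with few reads, is left out). Lower panel: Pearson's r, in each library, of this deviation with transcript GC content across 16079 genes. Where the bars are negative (WT 1, WT 3, AKO 1) the solid lines of *Cav2* and *Cavin2* lie above 0, and where they are positive (WT 2, AKO 2, AKO 3) neither line lies above 0 and both are lowest in AKO 2 and AKO 3.

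When the median deviation was set to 0 within bins of genes of like GC content in each library, an alternative chosen after the data were seen, the differences were smaller for *Cav2* (-0.71), *Cavin2* (-0.84), *Cavin3* (0.80), *Ehd2* (0.30) and *Cavin1* (0.05) on the log2 scale, and *Cav1* turned to 0.12. Those of *Pacsin2* (-0.31), *Pacsin3* (-0.41) and *Cav3* (-0.61) were larger. None was called by limma, and 0% of all genes were. After this centring the *Prmt5* AKO libraries lay below every WT library for *Cavin2* and *Pacsin3*, 2 of 9 genes against 7.01% of all genes, and above for 0 of 9 against 8.27%. The values of *Cavin2* were then 9.16, 8.69 and 9.19 in the WT libraries and 8.61, 7.89 and 8.01 in *Prmt5* AKO, in log2 units.

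**Figure D4:**
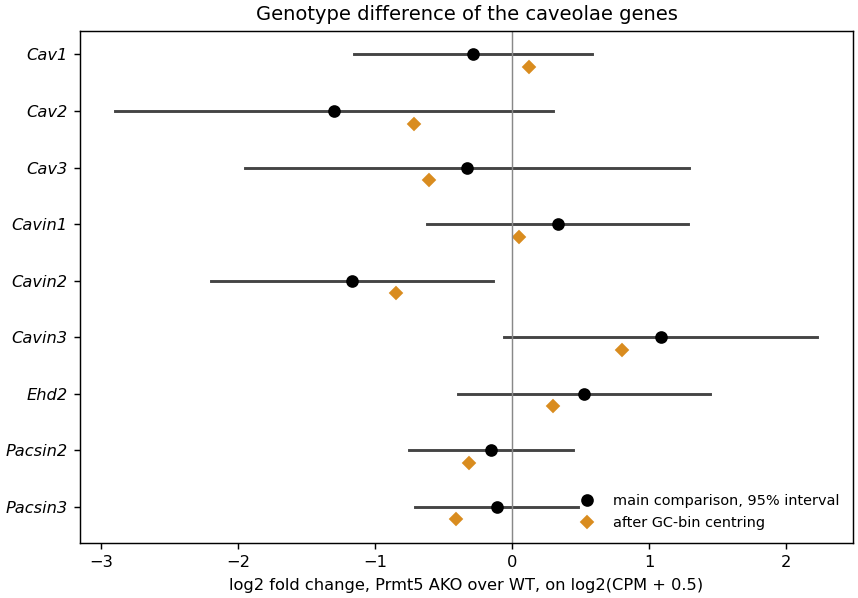
Log2 fold change of *Prmt5* AKO over WT for the 9 caveolae genes on log2(CPM + 0.5), with black points for the limma estimates, bars for their 95% intervals and orange diamonds for the estimates after GC-bin centring. The bar of *Cavin2* lies wholly below 0, before adjustment over all genes. The diamonds of *Cav2*, *Cavin2*, *Cavin3*, *Ehd2* and *Cavin1* lie nearer to 0 than the points.

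Ratios within a library do not depend on that library's scaling. The log2 ratio of *Cav1* to *Plin1*, which encodes the lipid droplet coat protein perilipin, was -0.14, -0.06 and 0.74 in the WT libraries and -0.18, -0.52 and -0.95 in *Prmt5* AKO. Every knockout library lay below every WT library, with a mean difference of -0.73, and the exact two-sided permutation test gave p = 0.1 (0.4 adjusted over the 4 ratios compared). The ratio to *Cav2* differed by 1.01 (exact permutation p = 0.3), that to *Cavin1* by -0.62 (exact permutation p = 0.3) and that to *Pecam1*, an endothelial junction gene, by -0.42 (exact permutation p = 0.6), each with overlapping genotypes. The ratio to *Plin1* joins a transcript of 42.6% GC to one of 56.9% GC. After GC-bin centring the log2 fold change was 0.12 for *Cav1* and 0.12 for *Plin1*, and the ratio itself was not compared again.

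Markers of the other cells that build caveolae were measured beside these genes. All 14 endothelial markers passed the filter, with summed levels of 1908, 1796 and 1274 CPM in WT and 1576, 1429 and 1751 CPM in *Prmt5* AKO, which overlapped. All 11 smooth muscle and pericyte markers passed, 9 with a positive fold change and 5 with every knockout library above every WT library (8.16% of all genes), and their sums were 1774, 966 and 1296 CPM in WT and 1758, 2156 and 2743 CPM in *Prmt5* AKO. The higher sums fell in *Prmt5* AKO replicates 2 and 3, as for *Cavin1*, *Cavin3* and *Ehd2*, and the part of smooth muscle RNA in those values was not tested.

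Of 24 listed genes whose proteins reside in or act with caveolae, 23 were analysed here and passed the filter (*Ehd1* was not analysed here). By limma 0 of 23 were called in either direction, 12 had a positive and 11 a negative fold change with a median of 0.02 on the log2 scale, and 1 stood at an unadjusted p under 0.05. The libraries of *Prmt5* AKO lay above those of WT for 2 of 23 against 8.16% of all genes, and below for 0 of 23 against 6.28%. *Nos3*, the endothelial nitric oxide synthase that binds CAV1, was at 56.0, 63.1 and 41.4 CPM in WT and at 75.1, 97.8 and 110 CPM in *Prmt5* AKO (a log2 fold change of 0.81, SE 0.28, unadjusted p = 0.0189, adjusted p = 0.473 by limma). *Src*, the kinase that phosphorylates CAV1, was at 22.4, 19.9 and 14.6 CPM in WT and at 24.2, 29.4 and 33.5 CPM in *Prmt5* AKO (a log2 fold change of 0.61, SE 0.29, adjusted p = 0.586 by limma). In both genes every knockout library lay above every WT library. After GC-bin centring the log2 fold change was 0.48 for *Nos3* and 0.29 for *Src*. *Cd36*, a fatty acid transporter whose place at the adipocyte surface depends on caveolae, was at 3921, 2241 and 3276 CPM in WT and at 2585, 1533 and 1113 CPM in *Prmt5* AKO (a log2 fold change of -0.90, SE 0.47, adjusted p = 0.598 by limma), and the genotypes overlapped. Its log2 fold change after GC-bin centring was -0.32. Some insulin signalling genes of the list are named after their values were seen. On the log2 fold change scale *Insr* was at -1.03 (SE 0.60) and its substrate gene *Irs1* at -0.96 (SE 0.59). The glucose transporter gene *Slc2a4* was at -0.03 (SE 0.31). None of them was called, and the genotypes overlapped in each. Without WT replicate 1, *Insr* was at -0.65 and *Irs1* at -0.48.

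The genes whose pattern over the 6 libraries was most like that of *Cav1*, by Pearson's r of log2 values among 9315 genes, were *Rab2a* (0.992), a small GTPase of the early secretory pathway, *Rpf1* (0.990), *Larp7* (0.988), *Btbd1* (0.988) and *Hpgd* (0.987). *Rab2a* was at 154, 140.1 and 193 CPM in WT and at 153, 146 and 104 CPM in *Prmt5* AKO. As in *Cav1*, WT replicate 3 was highest and *Prmt5* AKO replicate 3 lowest. This likeness is a description of 6 libraries and no more.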

How the data were processed

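RNA-seq of eWAT from 3 WT and 3 *Prmt5* AKO samples was used, as 1 library each. By the study's methods and the submitters' processing notes, poly(A) RNA was sequenced on an Illumina HiSeq, and the authors' steps were quality control (FastQC 0.11.9), trimming (Trim Galore 0.6.0), alignment to GRCm38 (STAR 2.7.10a) and counting per gene (featureCounts of Subread 2.0.1). The study's text mentions a batch correction without naming a batch, and no batch variable or strand setting is given in the sources used here. The authors deposited 1 signal column per library that holds CPM on edgeR's effective library sizes, where plain CPM had been assumed. Whole reads, within 0.05 of a read, were recovered for all values, so these hold no correction that differs between genes of a library, and were used only in alternatives. The deposited columns of the authors' own comparison (fold changes and p-values) were not used. Such scaling sets levels relative to the rest of a library, so a gene's share depends on what else the library holds.

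The filter required 0.5 CPM or more in 3 or more libraries and kept 16109 of 16619 genes. limma 3.58.1 (lmFit, and eBayes with its trend option) compared the genotypes on log2(CPM + 0.5), a scale that understates changes of low genes, with Benjamini-Hochberg adjustment. Ratios and *Prmt5* were compared by an exact permutation test over the 20 arrangements of 3 against 3 libraries. Exon lengths, positions and transcript GC content came from the reference annotation of GRCm38, with a GC value for 16079 of the genes kept, and promoter windows came from RefSeq (8 of 9 genes matched, the first listed window each; *Cavin3* had no entry).

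The text names the 9 members and *Prmt5*, the 3 partners with the smallest p, and the 5 genes most correlated with *Cav1* among those with a mean of at least 10 CPM. *Plin1* and *Pecam1* are named for the ratios, *Xist* and *Myh4* as markers, and *Cfd* and *Acta1* as markers without which the order of a sum changes. *Cavin4*, *Insr*, *Irs1* and *Slc2a4* were picked from the partners after their values were seen. The members and lists were chosen with earlier results of these data known. The 22 alternatives chosen at the outset were other pseudocounts (0.1 and 2 CPM), filters (none and 2 CPM) and scalings, adjusted p alone, robust eBayes, array weights, the replicate number as a block, DESeq2 1.42.0, limma-voom, the quasi-likelihood and likelihood ratio tests of edgeR 4.0.16 and each library left out. GC centring in 50 bins was added after the data were seen. The limma comparison and the GC centring were tested on simulated data, and the other fits were not. R 4.3.3, Python 3.11.15, numpy 2.4.6, pandas 2.3.3 and matplotlib 3.10.9 were used.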

Additional observations from a re-analysis of the deposited data

How the results depend on the processing

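Of 23 alternatives, 21 called 0 of the 9 caveolae genes, and 2 called some: array weights (6 of them, with 16 of the 23 partner genes and *Prmt5* at -0.86) and, in edgeR, a likelihood ratio test that took the replicate block (2 of them, *Cavin2* lower at an adjusted p of 0.0228 and *Cavin3* higher at 0.00805, and *Prmt5* at -1.08, adjusted p = 0.0366). The weights ran from 0.13 to 20.03 and their estimation stopped before it converged. Over all genes, the calls were 9322 with array weights, 682 and 162 with the likelihood ratio test with and without the replicate block, 301 with DESeq2, 129 with limma and the replicate block and 84 without *Prmt5* AKO replicate 1, against 0 in the limma comparison. Whether the replicate numbers pair the samples is not stated in the labels, and the values did not settle it. Deviations from the genotype means correlated at 0.68, 0.57 and -0.11 between same-numbered libraries. Between differently numbered ones they correlated at -0.67 (WT 2 with AKO 1) to 0.53 (WT 2 with AKO 3).

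The sign turned in 3 genes: *Cav1* (0.12 after GC-bin centring), *Cav3* (-0.98 to 0.34 with single libraries left out, positive without WT replicate 3) and *Pacsin3* (-0.24 to 0.018, positive without *Prmt5* AKO replicate 1). The causes were not tested. *Cav3*, left out by the filter at 2 CPM, rests on 5 to 107 reads. Leaving out single libraries, the members' median ran from -0.26 to -0.10 with 0 members and 0 partners called, *Prmt5* from -1.28 to -0.81, and the log2 ratio differences from 0.61 to 1.68 (*Cav1*/*Cav2*), -0.95 to -0.36 (*Cav1*/*Cavin1*), -0.91 to -0.45 (*Cav1*/*Plin1*) and -0.58 to -0.15 (*Cav1*/*Pecam1*). The median standard error over all genes of 0.37 limits what 3 libraries per genotype can show.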
